A study of Homo sapiens with 6 samples.

Results

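The genes described here encode the enzymes that build the stem of glycosaminoglycan chains and polymerise heparan sulphate. The linker enzymes are XYLT1, XYLT2, B4GALT7, B3GALT6 and B3GAT3, and the EXT family is represented by EXT1, EXT2, EXTL2 and EXTL3. They were taken by gene symbol, through the RefSeq accession in each probe set identifier; the rule uses no measured value, although the set was proposed with earlier results of these data known. All 9 genes were among the 927 named on the array, with 10 of its 1259 probe sets, because XYLT1 had 2. The cells were of the HCT116 line, from a colorectal cancer with unstable microsatellites. By the sample titles they held a wild-type ACVR2 gene under doxycycline control; the source labels name TGFBR2, ACVR2 and AIM2 together. Cells given doxycycline and activin A (+DOX, 3 arrays) were compared with cells given activin A without doxycycline (-DOX, 3 arrays), to ask which glycan genes differ when the activin receptor is re-expressed. Activin A was thus present in both groups. No array shows doxycycline without the inducible gene, so the drug and the transgene cannot be told apart. Dose, time of induction, number of clones and whether the replicates were separate cultures were not given in the sources used here, so the p-values rest on the spread between these arrays alone, part or all of which may be technical.

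Heparan sulphate and chondroitin sulphate hang from their core proteins by the same short sugar bridge. A xylosyltransferase attaches xylose to a serine of the core protein, galactosyltransferases add galactose, and a glucuronyltransferase closes the bridge. The first hexosamine then decides the chain: a GlcNAc opens heparan sulphate, which a complex of EXT1 and EXT2 lengthens with alternating glucuronic acid and GlcNAc, whereas a GalNAc opens chondroitin sulphate. In epithelial cells such chains are carried by syndecans and glypicans at the cell surface, where they bind growth factors. Inherited loss of EXT1 or EXT2 causes multiple bony outgrowths, and inherited defects of the linker enzymes affect skeleton, skin and joints.

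The 250 bases upstream of the start site are shown for B3GALT6, B3GAT3, EXT2 and EXTL2. These linker and EXT family genes deviated in opposite directions on one of the arrays described below. They are not all that did so: XYLT2 and B4GALT7 deviated like the linker genes shown, and EXT1 like the EXT family genes shown. No upstream sequence was available for EXT1 or EXTL3. The sequences are from RefSeq (GRCh38.p14) and are written 5′ to 3′ on the gene's strand. Capitals mark matches on either strand to the E-box CACGTG, the cAMP response element TGACGTCA, the GC box GGGCGG or the SMAD box CAGAC, the last being the short element that activin-activated SMAD proteins can bind.
B3GALT6 (chr1:1231987-1232236, + strand): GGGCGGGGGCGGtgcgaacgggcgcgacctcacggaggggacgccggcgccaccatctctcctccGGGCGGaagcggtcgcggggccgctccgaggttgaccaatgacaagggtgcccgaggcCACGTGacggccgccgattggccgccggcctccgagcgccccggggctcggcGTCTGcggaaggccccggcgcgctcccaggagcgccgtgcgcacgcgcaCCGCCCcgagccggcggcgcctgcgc
B3GAT3 (chr11:62621987-62622236, - strand): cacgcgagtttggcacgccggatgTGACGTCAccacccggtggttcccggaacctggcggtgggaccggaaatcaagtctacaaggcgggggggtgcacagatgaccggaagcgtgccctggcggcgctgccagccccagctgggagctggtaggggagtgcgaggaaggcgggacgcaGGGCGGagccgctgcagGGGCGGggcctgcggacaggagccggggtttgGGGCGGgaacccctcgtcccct
EXT2 (chr11:44095428-44095677, + strand): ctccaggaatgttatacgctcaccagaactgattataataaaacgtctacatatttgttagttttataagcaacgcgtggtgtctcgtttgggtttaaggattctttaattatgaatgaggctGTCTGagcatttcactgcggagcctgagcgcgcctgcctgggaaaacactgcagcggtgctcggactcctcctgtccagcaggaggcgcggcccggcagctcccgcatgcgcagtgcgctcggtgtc
EXTL2 (chr1:100894843-100895092, - strand): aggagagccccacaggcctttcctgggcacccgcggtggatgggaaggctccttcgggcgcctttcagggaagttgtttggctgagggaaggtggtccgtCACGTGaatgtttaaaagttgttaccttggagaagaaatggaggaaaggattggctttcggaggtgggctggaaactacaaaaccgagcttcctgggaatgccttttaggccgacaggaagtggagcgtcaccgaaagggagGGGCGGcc

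GC boxes numbered 4 upstream of B3GALT6, 3 upstream of B3GAT3 and 1 upstream of EXTL2, and these letters were not in the EXT2 window. An E-box lay upstream of B3GALT6 and of EXTL2, a cAMP response element upstream of B3GAT3, and a SMAD box upstream of B3GALT6 and of EXT2. No matches overlapped in these windows, although a pair of GC boxes upstream of B3GALT6 were adjacent. Among 35116 upstream windows of the same length in the RefSeq table, 42.6% held a GC box, 38.0% a SMAD box, 6.34% an E-box and 1.65% a cAMP response element. EXT2 has 3 start sites in that table, and the window shown belongs to the one farthest upstream. The windows of the other start sites, which nearly coincide, each held 2 GC boxes and no SMAD box, so both statements on EXT2 hold for the window shown only. The windows of XYLT2 and B4GALT7, not shown, held 3 and 5 GC boxes and none of the other marked elements. A match is a description of the letters and not evidence of binding.

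None of the linker or EXT family genes passed the threshold of an adjusted p of 0.05 between +DOX and -DOX cells. Across the array 0 of 1259 probe sets passed (limma; percent called 0), with 98 (7.78%) at an unadjusted p under 0.05, of which EXTL3 was the single member. Those 98 were 41 higher (3.26%) and 57 lower (4.53%) in +DOX cells, a split that was 63 higher and 44 lower with each array centred on its median. All 4 EXT family genes had lower means in +DOX cells, by 0.10 to 0.19 log2 units. The 6 linker probe sets divided into 4 with higher and 2 with lower means in +DOX cells. The median difference was -0.14 for the EXT family and 0.01 for the linker probe sets, against -0.0081 over all probe sets. These class values depend on which -DOX array is left out. One of them, -DOX replicate 3, stood apart from the rest of the series. Without it the medians were -0.05 for the EXT family and -0.04 for the linker probe sets, against -0.02 over all probe sets, and the classes no longer differed in direction. The linker probe sets were then 2 higher (both of XYLT1) and 4 lower, and the EXT family 1 higher (EXTL2) and 3 lower. Without -DOX replicate 2 instead, the EXT family genes lay at -0.29 to -0.20 and the linker probe sets at -0.08 to 0.08.

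The correlation of -DOX replicate 3 with the other arrays across probe sets was 0.982 to 0.991, against 0.995 to 0.999 among the other 5. Where leaving it out turned a sign or changed a size much, the value without it is given. Array medians were 7.61 to 7.65 log2 units and lower quartiles 6.85 to 6.89. With so few arrays the precision is limited, and half-widths of the 95% confidence intervals had a median of 0.15 log2 units. The probe set of ACVR2A, the gene named as induced, averaged 8.08 ± 0.07 on +DOX arrays and 8.34 ± 0.32 on -DOX arrays (SD, n = 3 each). It differed by -0.26 (limma, adjusted p = 0.710), by -0.08 without -DOX replicate 3 and by -0.39 without -DOX replicate 2. The arrays labelled +DOX were thus not higher. It is not known whether its probes match the transgene. The induction, and with it the group labels that set the sign of every difference here, is thus not borne out by this probe set, and the arrays are named by their labels. Of 12 colon epithelial markers only MUC1 and LGALS4 were measured. The mean of both was 7.93 to 8.02 on +DOX arrays and 8.02 to 8.10 on -DOX arrays. MUC1 differed by -0.13 with all +DOX arrays below, as for 8.26% of all probe sets. LGALS4 differed by 0.0009 with overlapping groups. Of 14 markers of other cell types 5 were measured. LUM and DCN read below the lower quartile of every array, at 5.96 to 6.12, and PECAM1, NCAM1 and PDGFRB a little above it, at 6.98 to 7.17. The mean of the 5 was 6.64 to 6.66 on +DOX arrays and 6.66 to 6.69 on -DOX arrays. Their part in the results was not tested.

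**Figure D1:**
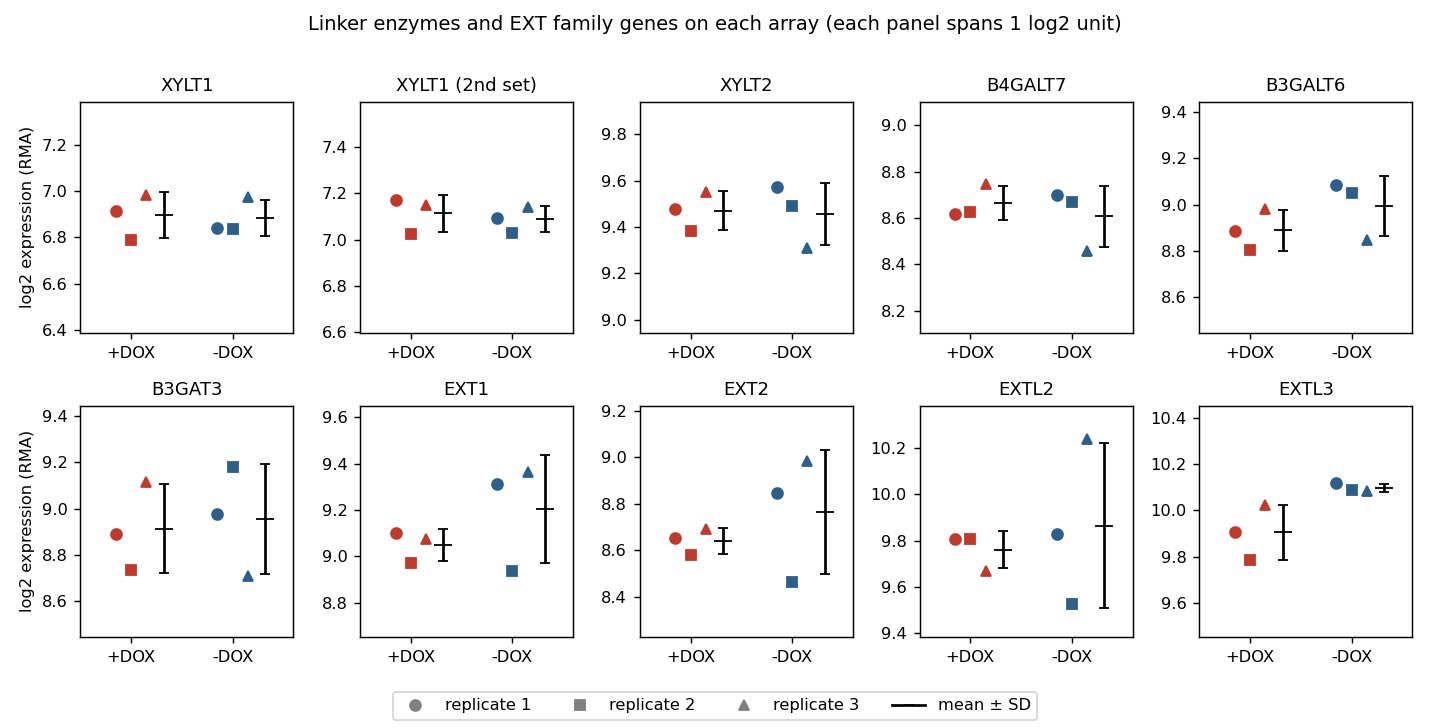
Log2 RMA expression of each probe set on each array, +DOX left and -DOX right, with replicate number as the symbol and mean ± SD (n = 3 each) in black; every panel spans the same height of 1 log2 unit. The +DOX points lie wholly below the -DOX points for EXTL3, and the groups overlap in every other panel.

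XYLT1 and XYLT2 are the xylosyltransferases that begin the bridge of heparan sulphate and chondroitin sulphate chains. Neither differed beyond the spread between arrays. The first XYLT1 probe set read 6.92, 6.79 and 6.98 on +DOX replicates 1, 2 and 3, against 6.84, 6.84 and 6.97 on -DOX replicates 1, 2 and 3. These values lie close to the lower quartile of the arrays, so the gene was dim and its background share is unknown. The second XYLT1 probe set, of the type that can cross-hybridise, read 7.17, 7.02 and 7.15 on +DOX arrays, against 7.09, 7.03 and 7.14 on -DOX arrays. Both probe sets had their lowest reading on +DOX replicate 2, and both differences were near 0, at 0.01 (95% interval -0.16 to 0.18) and 0.03 (-0.11 to 0.16), or 0.06 and 0.05 without -DOX replicate 3. XYLT2 read 9.48, 9.38 and 9.55 on +DOX arrays, against 9.57, 9.49 and 9.31 on -DOX arrays. The highest and the lowest XYLT2 readings were both on -DOX arrays, and the difference was 0.01 (-0.19 to 0.22; limma, adjusted p = 0.972). Without -DOX replicate 3, which held that lowest reading, it was -0.06.

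B4GALT7 adds the first galactose and B3GALT6 the second. B4GALT7 read 8.62, 8.63 and 8.75 on +DOX arrays, against 8.70, 8.67 and 8.46 on -DOX arrays. The groups overlapped, and the difference of 0.05 (95% interval -0.14 to 0.25; limma, adjusted p = 0.815) was the most positive among the members. Without -DOX replicate 3 it was -0.02, so its sign rests on that array. B3GALT6 read 8.89, 8.80 and 8.98 on +DOX arrays, against 9.09, 9.05 and 8.84 on -DOX arrays. The -DOX replicates 1 and 2 lay above every +DOX array, while -DOX replicate 3 lay among them. The difference was -0.10 (SE 0.08; limma, adjusted p = 0.730), and the exact two-sided permutation p was 0.3, where 3 arrays against 3 can give no less than 0.1. Without -DOX replicate 3 the difference was -0.18 (95% interval -0.33 to -0.02; limma, adjusted p = 0.424). It then had an unadjusted p under 0.05, as did 9.93% of all probe sets in that fit.

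B3GAT3, the glucuronyltransferase that completes the bridge, varied most among the linker enzymes. It read 8.89, 8.74 and 9.12 on +DOX arrays, against 8.98, 9.18 and 8.71 on -DOX arrays. Each group spanned most of the other's range, with an SD of 0.19 for +DOX and 0.24 for -DOX. The difference was -0.04 (95% interval -0.42 to 0.34; limma, adjusted p = 0.950), and it was -0.17 without -DOX replicate 3. The interval of B3GAT3 was the widest among the linker enzymes.

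EXTL3 adds the first GlcNAc to the finished bridge and so opens heparan sulphate. It read 9.90, 9.79 and 10.02 on +DOX arrays, against 10.12, 10.09 and 10.08 on -DOX arrays. All 3 +DOX arrays lay below all 3 -DOX arrays, and it was the only member whose groups did not overlap. On the array as a whole 15.8% of probe sets had groups that did not overlap, 7.55% with +DOX above and 8.26% with +DOX below. EXTL3 averaged 9.90 ± 0.12 on +DOX arrays and 10.10 ± 0.02 on -DOX arrays (SD, n = 3 each), a difference of -0.19 (95% interval -0.36 to -0.03), or 1.14-fold. It did not pass (limma, adjusted p = 0.562; unadjusted p = 0.0288; exact permutation p = 0.1, the smallest this design can give). An unadjusted p under 0.05 with lower values was found for 4.53% of all probe sets, and EXTL3 ranked 64 by unadjusted p. Its -DOX readings were unusually close together, unlike those of the rest of the family, whose -DOX SDs were 0.23 to 0.36. Without -DOX replicate 3 the difference was -0.20 (limma, adjusted p = 0.473). EXTL3 lost its unadjusted p under 0.05 in 6 of 13 alternatives: with an eBayes trend and robust prior, with a span trend removed, and without +DOX replicate 1, +DOX replicate 2, -DOX replicate 1 or -DOX replicate 2.

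EXT1 and EXT2 form the polymerase that lengthens the chain. EXT1 read 9.10, 8.97 and 9.08 on +DOX arrays, against 9.31, 8.94 and 9.37 on -DOX arrays. EXT2 read 8.65, 8.58 and 8.69 on +DOX arrays, against 8.85, 8.46 and 8.98 on -DOX arrays. In both genes -DOX replicates 1 and 3 lay above every +DOX array and -DOX replicate 2 lay below them all. EXT1 differed by -0.16 (SE 0.12; limma, adjusted p = 0.730) and EXT2 by -0.12 (SE 0.14; limma, adjusted p = 0.749). Which -DOX array was left out set the size of both: without replicate 3 they were at -0.08 and -0.01, and without replicate 2 at -0.29 and -0.27. In the fit without replicate 2 both had an unadjusted p under 0.05, as did 20.5% of all probe sets, and neither passed after adjustment (smallest limma adjusted p over all alternatives 0.112 for EXT1 and 0.119 for EXT2). With limma's array weights, B3GALT6, EXT1 and EXTL3 had an unadjusted p under 0.05, as did 19.5% of all probe sets.

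EXTL2 can add a single hexosamine to a bridge whose xylose is phosphorylated, which stops the chain. It read 9.81, 9.81 and 9.67 on +DOX arrays, against 9.83, 9.53 and 10.24 on -DOX arrays. The -DOX arrays held the highest and the lowest reading and spanned the whole +DOX range, with an SD of 0.08 for +DOX and 0.36 for -DOX. The difference was -0.10 (95% interval -0.55 to 0.35; limma, adjusted p = 0.856). It was 0.08 without -DOX replicate 3 and -0.27 without -DOX replicate 2. The sign of the EXTL2 difference thus rests on -DOX replicate 3, and its size on -DOX replicate 2 as well.

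**Figure D2:**
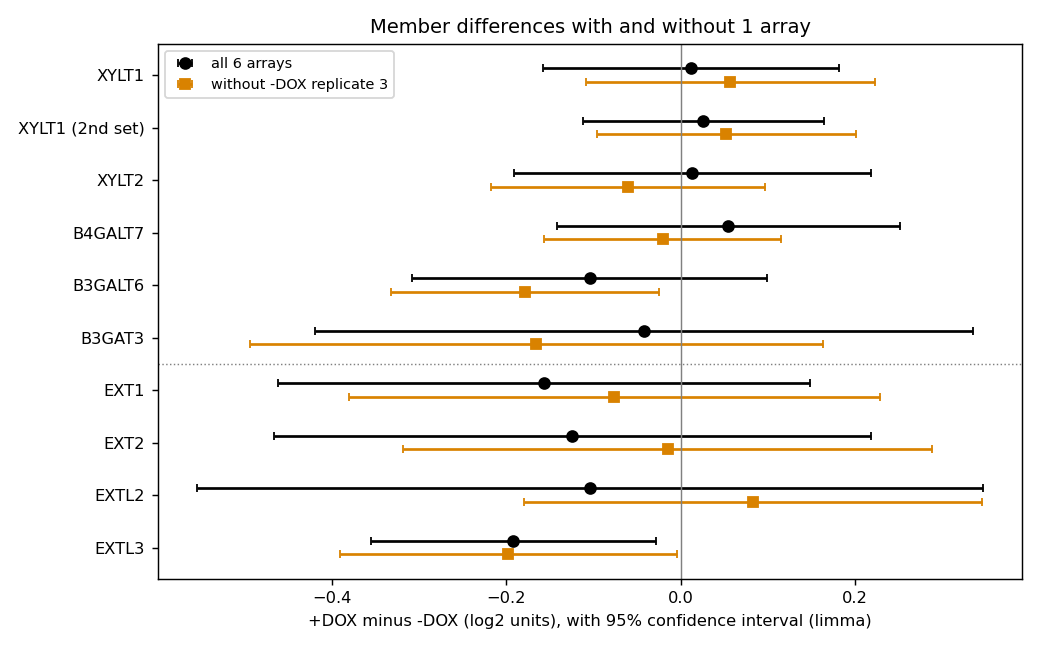
Difference of +DOX minus -DOX in log2 units for each probe set, with its 95% confidence interval from limma, with all 6 arrays (black circles) and without -DOX replicate 3 (orange squares); linker enzymes stand above the dotted line. EXTL3 stays near -0.19, B3GALT6 moves to -0.18, and XYLT2, B4GALT7 and EXTL2 change sign.

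The members' spread within the -DOX group had a shape that the comparison of means does not show. On -DOX replicate 3, EXT1, EXT2 and EXTL2 had the highest readings of their group and XYLT2, B4GALT7, B3GALT6 and B3GAT3 the lowest. The remaining 3 probe sets ran the other way: EXTL3 had its lowest reading of the group there, by a narrow margin, and both XYLT1 probe sets their highest. That array was the highest of its group for 30.3% of all probe sets and the lowest for 49.2%. Relative to each probe set's mean over the 6 arrays, the EXT family averaged 0.26 on that array and the linker genes -0.12. On -DOX replicate 2 the order was the opposite, with -0.16 for the EXT family and 0.07 for the linker genes. On -DOX replicate 1 they were at 0.12 and 0.07. The gap of EXT family over linker genes was thus 0.38, -0.23 and 0.05 on -DOX replicates 3, 2 and 1.

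On the +DOX arrays that gap was narrower, at -0.03, -0.02 and -0.14 on replicates 1, 2 and 3. On those arrays the classes shared their lowest replicate: 5 of 6 linker probe sets were lowest on +DOX replicate 2 and 5 of 6 highest on +DOX replicate 3, and 3 of 4 EXT family probe sets were lowest on +DOX replicate 2. Over all probe sets, +DOX replicate 2 was the lowest of its group in 39.0% and +DOX replicate 3 the highest in 45.0%. The gap averaged -0.07 on +DOX arrays and 0.07 on -DOX arrays, a difference of -0.13. On single -DOX arrays the gap itself ran from -0.23 to 0.38, and the difference was not tested. Without -DOX replicate 3 the -DOX mean was -0.09 and the difference 0.02, so the sign of the difference rests on that array. Values spread less between +DOX arrays over the whole table as well, with a median SD of 0.05 for +DOX and 0.09 for -DOX.

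**Figure D3:**
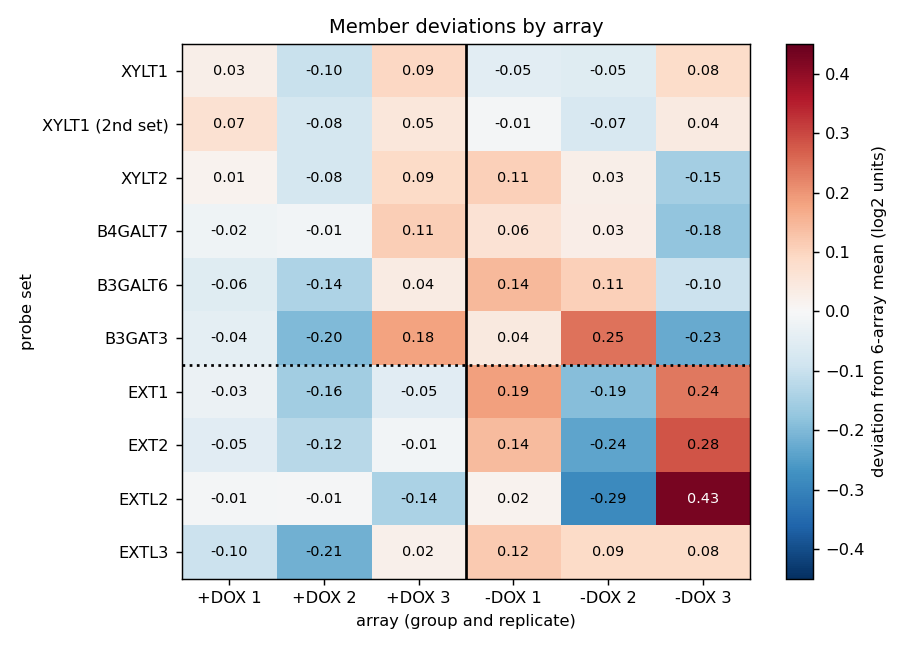
Deviation of each probe set from its own mean over the 6 arrays, in log2 units (red above, blue below), with +DOX arrays left of the solid line and linker enzymes above the dotted line. EXT1, EXT2 and EXTL2 are at 0.24, 0.28 and 0.43 on -DOX replicate 3, where XYLT2, B4GALT7, B3GALT6 and B3GAT3 are at -0.15, -0.18, -0.10 and -0.23.

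Gene span went with part of this split, and whether span accounts for it was not tested. All 4 EXT family genes were longer than the median measured gene, introns included, and 4 of 5 linker genes were shorter, XYLT1 being the exception. Over 1043 probe sets with a known span, the deviation from the group mean correlated with span at a Spearman coefficient of 0.42 on -DOX replicate 3 and -0.42 on -DOX replicate 2. The deviations of the 3 arrays of a group sum to 0, so these coefficients are not independent. On the remaining 4 arrays the coefficient lay between -0.09 and 0.10. XYLT1, one of the longest of these genes, was at 0.08 and 0.04 on -DOX replicate 3, on the side of the EXT family rather than of the other linker genes. EXTL2, at only the 53.3 percentile of span, had the largest member deviation on that array, at 0.43. EXTL3, at the 90.9 percentile, was at 0.08 there, although its reading of 10.08 was just below its -DOX mean of 10.10. The difference of +DOX minus -DOX itself correlated with span at -0.25 over the same probe sets, longer genes having the lower values in +DOX cells. With a trend against span removed from each array, EXTL3 was at -0.13, EXT1 at -0.07, EXT2 at -0.06, EXTL2 at -0.10 and B3GALT6 at -0.17.

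The genes that act before, beside and after these enzymes also gave no call. Among suppliers of precursors and related enzymes, 13 of 15 listed genes were measured; 8 had higher and 5 lower means in +DOX cells, 0 passed in either direction (limma, threshold as above; 0 at an unadjusted p under 0.05), and the median difference was 0.06, against -0.0081 over all probe sets. SLC35B4, a transporter of UDP-xylose, was at -0.34 (SE 0.19; limma, adjusted p = 0.692). Its difference was -0.16 without -DOX replicate 3 and -0.54 without -DOX replicate 2. SLC35D1, which carries UDP-glucuronic acid, was at 0.10. B3GAT1 and B3GAT2, glucuronyltransferases related to B3GAT3 that serve other glycans, were at -0.06 and 0.08. B3GAT2 read below the lower quartile of every array, at 6.34 to 6.52, and B3GAT1 a little above it, at 7.08 to 7.17. Their background share is unknown. For SLC35D1 all +DOX arrays lay above the -DOX arrays, by 0.00046 log2 units at the nearest pair, and without -DOX replicate 3 its difference was 0.05. For B3GAT1 all +DOX arrays lay below, while the other pair overlapped; groups did not overlap for 7.55% of all probe sets with +DOX above and 8.26% with +DOX below.

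Of 18 heparan sulphate modifying genes, all measured, 7 had higher and 11 lower means in +DOX cells, with 0 past the threshold (limma; 2 at an unadjusted p under 0.05, both lower, beside 4.53% of all probe sets) and a median of -0.02, or -0.03 without -DOX replicate 3. NDST1, which starts the sulphation of the chains that EXT1 and EXT2 make, read 8.88, 8.86 and 9.02 on +DOX arrays, against 9.26, 9.08 and 9.12 on -DOX arrays. The groups did not overlap, and the difference was -0.23 (SE 0.07; limma, adjusted p = 0.477). NDST2, a second enzyme of that kind, was at -0.15 (SE 0.05; limma, adjusted p = 0.562), also with groups that did not overlap. Of the 18 genes 2 had +DOX arrays wholly below, beside 8.26% of all probe sets. The genes named here had the smallest unadjusted p of the list. HS6ST1, a 6-O-sulphotransferase, was at -0.24 and SULF2, an extracellular 6-O-sulphatase, at -0.19, both with overlapping groups. SULF2 was at -0.08 without -DOX replicate 3, whereas NDST1 was at -0.25 and HS6ST1 at -0.29. Without -DOX replicate 2 instead, SULF2 was at -0.33, NDST1 at -0.27 and HS6ST1 at -0.20.

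In the competing chondroitin and dermatan sulphate branch, 15 of 16 listed genes were measured; 8 had higher and 7 lower means in +DOX cells, 0 passed (limma; 1 higher and 1 lower at an unadjusted p under 0.05, beside 7.78% of all probe sets), and the median was 0.0041. That median was -0.04 without -DOX replicate 3, without -DOX replicate 2 or with array weights. CHST3, a chondroitin 6-O-sulphotransferase, was at -0.24 (SE 0.05; limma, adjusted p = 0.474), and CHST11, a 4-O-sulphotransferase, at 0.32 (SE 0.09; limma, adjusted p = 0.477). Neither had overlapping groups. Of the 15 genes 1 had +DOX arrays wholly above and 1 wholly below, beside 7.55% and 8.26% of all probe sets. CHST15, which adds a further sulphate to 4-O-sulphated GalNAc, was at -0.53 (SE 0.26) and UST, a uronyl 2-O-sulphotransferase, at -0.27 (SE 0.17), with overlapping groups. Without -DOX replicate 3 they were at -0.28 and -0.14, and without -DOX replicate 2 at -0.80 and -0.45. Of the cell surface core proteins that carry the chains, 11 of 12 were measured; 6 had higher and 5 lower means, 0 passed (limma; 0 at an unadjusted p under 0.05), and the median was 0.0051, or -0.0062 without -DOX replicate 3. The syndecan genes SDC3 and SDC4 were at 0.09 and 0.15. They were at 0.06 and 0.09 without -DOX replicate 3, and at 0.13 and 0.17 without -DOX replicate 2. The glypican gene GPC6 was at 0.09 and the hyaluronan receptor gene CD44 at -0.39. CD44 was at -0.11 without -DOX replicate 3 and at -0.58 without -DOX replicate 2. Only GPC6 of these 4 had groups that did not overlap, with +DOX above, as had 7.55% of all probe sets. Its values were below the lower quartile of the arrays.

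**Figure D4:**
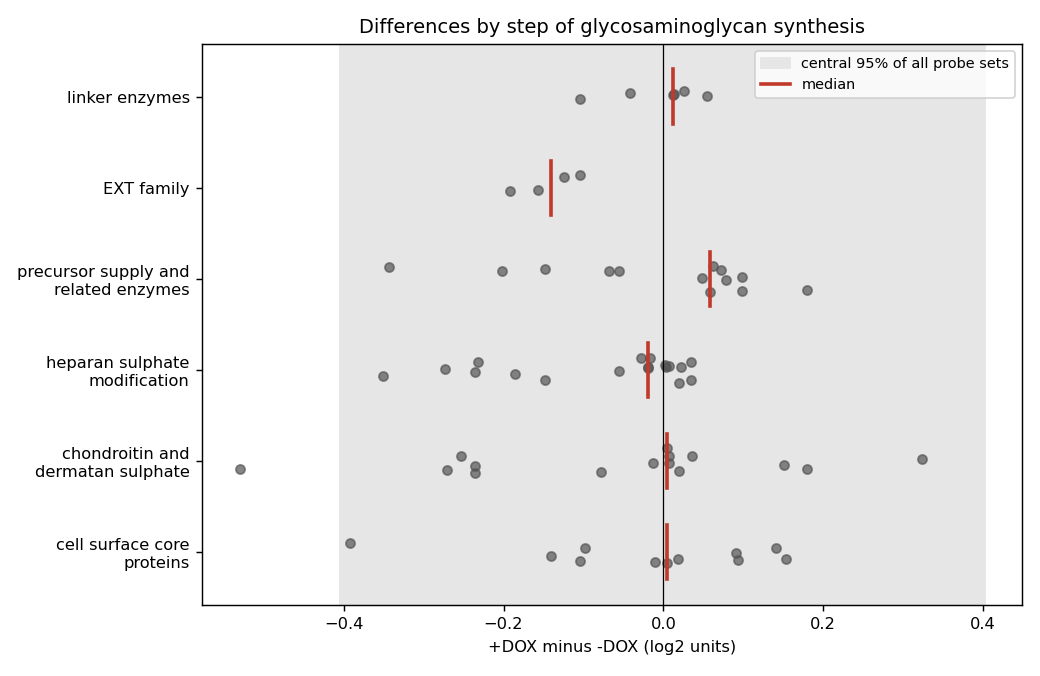
Difference of +DOX minus -DOX in log2 units for each probe set of the linker enzymes and EXT family and for each gene of 4 further steps of glycosaminoglycan synthesis (points), with the median of each list (red) and the central 95% of all 1259 probe sets (grey, -0.41 to 0.40). Every linker and EXT family point lies inside the grey band, and CHST15 is the point at -0.53.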

How the data were processed

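Biotin-labelled cRNA from Trizol-extracted total RNA was hybridised to a focused glycogene array, per the labels' protocols. The authors deposited log2 expression values made by RMA (no version given), per the submitters' processing notes; genome build, scanner files and detection calls were not used here. All 6 value columns were mapped to samples by accession and grouped by title. Of 1259 probe sets, 1043 (82.8%) were named through the unversioned RefSeq accession in their identifier and a RefSeq gene table (GRCh38.p14), as 927 genes.

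All 1259 probe sets were fitted with limma 3.58.1 in R 4.3.3 (group means, default eBayes, two-sided), with Benjamini-Hochberg adjustment over the whole table and a threshold of 0.05. The fit was tested on simulated data with independent noise and planted differences larger than any member difference. No outlying array was simulated, so that test does not bear on differences of the size reported here. Member genes and lists were chosen with earlier results of these data known, so no list was tested. Every probe set of a member is given. Other pathway genes are represented by their brightest probe set, and up to 4 per list are named by smallest unadjusted p. Alternatives left out each array, used the replicate number as a block, rescaled the arrays, weighted them, changed the eBayes prior, left out dim probe sets or, chosen after seeing the data, removed a trend against gene span.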

Additional observations from a re-analysis of the deposited data

How the results depend on the processing

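None of the members passed under any of the 13 alternatives. Of 130 member values under them, 116 kept their direction. The replicate block, the changed eBayes prior and the filter on dim probe sets cannot change a difference. Agreement under those alternatives was therefore fixed in advance. The sign turned with array weights for XYLT2 (-0.0698) and B4GALT7 (-0.0314), and after a further quantile normalization for B3GAT3 (0.0254). Leaving out single arrays gave ranges that cross 0 for XYLT1 (-0.0321 to 0.0655, and -0.0027 to 0.0719 for its second probe set), XYLT2 (-0.0603 to 0.071), B4GALT7 (-0.0206 to 0.10), B3GAT3 (-0.17 to 0.0705) and EXTL2 (-0.27 to 0.0833). EXT1, EXT2, EXTL3 and B3GALT6 were lower in +DOX cells under every alternative run, EXTL3 between -0.25 and -0.13 with adjusted p-values of 0.163 to 0.903 (limma). With array weights 1 of 1259 probe sets passed, which was no member. The median over members was -0.07 and moved by less than the spread between arrays under all 13, within -0.10 to -0.0069. That spread, an SD of 0.07 for the member mean, is about as large as the median, so a move to nearly 0 counts as within it. The median was -0.0069 without +DOX replicate 2 and -0.0083 after a further quantile normalization. The 13 alternatives include those that cannot change a difference. The precursor list median was -0.0356 with array weights and -0.0319 to 0.10 without single arrays. With dim probe sets left out, the medians of heparan modification and core proteins were -0.15 and -0.0462, over fewer genes. The core protein median was also -0.0545 with array weights and 0.10 with the span trend removed. The cause was not tested.

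Same-numbered replicates did not deviate together (correlations -0.15, -0.04 and -0.16 for replicates 1, 2 and 3), so the replicate block was an alternative only. With that block 0 probe sets passed (limma, smallest adjusted p = 0.604). Signal over background is unknown without detection calls, which among the members limits XYLT1 most.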
